A study of Mus musculus with 12 samples.

Results

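The 7 genes described here encode kinases that respond to calcium through calmodulin: Camkk2, Camk1, Camk1d, Camk2a, Camk2b, Camk2d and Camk2g. They were matched by symbol among the 56941 genes of the deposited count tables, and all 7 had enough counts to be tested in every comparison. The family was chosen by the measured values of 1 member: Camk2b had been called lower in miR-210 knockout (KO) than in wild-type (WT) macrophages, both as M0 and as M2. The values of Camk2b between genotypes are therefore a description, without a test. Monocytes were isolated from the bone marrow of C57Bl/6J mice, either WT or miR-210 KO, and grown into M0 macrophages over 7 days in medium with 20% serum and 30% L929-conditioned medium, a source of the macrophage growth factor M-CSF. M2 macrophages received 20 ng/mL IL-4 for a further 72 hours, and M0 wells were kept without IL-4. Total RNA was depleted of ribosomal RNA and sequenced, with 3 libraries in each of the groups WT M0, KO M0, WT M2 and KO M2.

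Per the study's methods, a Gata-1 Cre transgene made the deletion from a floxed miR-210 allele, and mice of both genotypes were then bred from heterozygotes. The ages of the mice and the number of animals behind each library were not given in the sources used here, so the spread between libraries may be partly technical. Library totals ran from 7930525 to 10167695 counts. In the labels the batch has a different value in every group, so group and batch cannot be told apart. The deleted gene, Mir210, had 1 to 5 counts in the 6 WT libraries and 0 in the 6 miR-210 KO libraries. All 7 macrophage markers examined (Cd68, Adgre1, Itgam, Csf1r, Lyz2, Mertk and Fcgr1) had more than 3 counts in every library. The M2 marker Retnla was at 0 in the M0 libraries and at 2161 to 4493 counts in the M2 libraries.

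Calmodulin is a small protein that changes shape when it binds calcium and then switches on the kinases that it contacts. CaMKK2, the product of Camkk2, is an upstream kinase that phosphorylates CaMKI and CaMKIV and also AMPK, the energy sensor of the cell. Camk1 and Camk1d encode 2 forms of CaMKI, a monomeric kinase that acts on transcriptional regulators and the cytoskeleton. Camk2a, Camk2b, Camk2d and Camk2g encode the 4 subunits of CaMKII, which assemble into large mixed holoenzymes and can stay active by autophosphorylation after calcium has fallen. The alpha and beta subunits are best known from neurons, whereas delta and gamma are found in most tissues. CaMKII and CaMKK2 are known in macrophages for their part in inflammatory signalling.

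The mature forms of the deleted microRNA are shown first, with sites in these genes that match their seeds, since a seed match is the usual way in which a microRNA recognises a transcript. Capitals mark the seed (bases 2 to 8) in the mature microRNAs, from RefSeq on GRCm38.p6 (chr7:141221407-141221428 and chr7:141221445-141221466, minus strand).
mmu-miR-210-3p: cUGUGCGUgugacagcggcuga
mmu-miR-210-5p: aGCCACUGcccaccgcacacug
The match to the seed of miR-210-3p, ACGCACA, occurred in the longest annotated 3′ untranslated region of Camkk2 (1 site) and of Camk2a (3 sites), and not in those of the other 5 genes. It occurred in 4.2% of the 3′ untranslated regions of 20956 genes. The Camkk2 site, with the match in capitals, lies at chr5:122874685-122874713 of GRCm39 on the minus strand, and the match starts 67 bases after the stop codon.
Camkk2 site: gtgacctaagtACGCACAcacagagcata
The match to the seed of the minor arm miR-210-5p, CAGTGGC, was found in Camk2b (2 sites) and Camkk2 (2 sites), against 16.45% of the 20956 genes. The Camk2b sites lie at chr11:5920945-5920973 and chr11:5920026-5920054 of GRCm39 on the minus strand and are shown because Camk2b differed most between the genotypes.
Camk2b site 1: cagctgagcaaCAGTGGCccacccctggc
Camk2b site 2: aggccatggaaCAGTGGCagggcttgcca
A longer region holds such a match more often by its length alone. The median length over the 20956 genes was 1467 bases. The regions of Camk2b, Camkk2 and Camk2a had 4528, 3502 and 3372 bases, while those of Camk1d (5620) and Camk2d (4722) held no match. A seed match is a stretch of letters and was not examined for binding.

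Levels of different genes were compared as normalized counts per kilobase of exon, that is, TMM-scaled counts divided by the length of the union of exons. In WT M0 macrophages Camk1d had the highest level per kilobase, at 109.8 ± 14.7 (SD, n = 3), followed by Camkk2 at 84.8 ± 6.55 and Camk1 at 75.04 ± 7.98 (SD, n = 3 each). Camkk2 and Camk1 overlapped between libraries and could not be ordered. Camk2d reached 49.9 ± 3.10, Camk2g 25.2 ± 2.40, Camk2b 4.01 ± 0.60 and Camk2a 1.88 ± 0.23 per kilobase (SD, n = 3 each), and none of these overlapped with the next in order. The beta and alpha subunits were thus the least abundant members in M0. In WT M2 macrophages the same 5 genes led, with Camkk2 and Camk1 again overlapping, but Camk2a, at 19.7 ± 1.37 per kilobase (SD, n = 3), now lay above Camk2b, at 8.23 ± 0.59 (SD, n = 3). With the length of the longest transcript in place of the union of exons the upper part of the order changed. Camkk2, Camk1 and Camk2d then overlapped at the top of WT M0, and Camk1d came after them at 117.1 ± 15.7 per kilobase (SD, n = 3).

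IL-4 polarization moved 6 of the 7 genes in WT macrophages, in both directions. Each was called by edgeR's quasi-likelihood test at a Benjamini-Hochberg (BH) adjusted p under 0.05 over all genes tested and a fold change over 1.2. Camk2a and Camk2b rose, Camkk2, Camk1, Camk1d and Camk2d fell, and Camk2g was not called. Calls were common in this comparison: 45.4% of the 11135 protein-coding genes with a mean normalized count over 10 passed, 23.6% higher and 21.8% lower in M2. The median log2 fold change was -0.50 over the 7 genes and 0.01 over all genes tested. The groups did not overlap in 6 of the 7 genes, against 60.7% of all genes. In bulk RNA a change in the number of cells that express a gene and a change in RNA per cell cannot be told apart.

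Camkk2, the upstream kinase, had normalized counts of 894, 1036 and 1011 in the WT M0 libraries and of 577, 531 and 511 in WT M2. Every M2 library lay below every M0 library, and the log2 fold change was -0.86 (SE 0.08, edgeR BH-adjusted p = 8.3e-07). Camk1, a CaMKI gene, had 496, 601 and 598.5 normalized counts in WT M0 against 325, 365 and 304 in WT M2, again without overlap, with a log2 fold change of -0.77 (SE 0.10, edgeR BH-adjusted p = 1.8e-05). Camk1d, the second CaMKI gene, went from 730, 944 and 791 in WT M0 to 571, 588 and 592 normalized counts in WT M2. The M0 libraries were more scattered than the M2 libraries but all lay above them, and the log2 fold change was -0.50 (SE 0.09, edgeR BH-adjusted p = 0.00045). The kinase that activates CaMKI and both CaMKI genes thus fell after IL-4.

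The CaMKII genes divided. Camk2a, the alpha subunit, had 15, 22 and 18 raw counts in WT M0 against 170, 191 and 183 in WT M2. This was the largest change among the 7 genes, 10.4-fold, with a log2 fold change of 3.38 (SE 0.16, edgeR BH-adjusted p = 1.4e-09). Camk2b, the beta subunit, had 51, 52 and 72 raw counts in WT M0 against 119, 122 and 99 in WT M2, a log2 fold change of 1.03 (SE 0.15, edgeR BH-adjusted p = 7.1e-05). Both subunits that were rare in M0 rose without overlap between the groups. Camk2d, the delta subunit and the CaMKII gene with the highest mean level in each group, fell from 1385, 1377 and 1238 normalized counts in WT M0 to 884, 848 and 838 in WT M2 (log2 fold change -0.64, SE 0.07, edgeR BH-adjusted p = 3.8e-06). Camk2g, the gamma subunit, had 215, 259 and 234 normalized counts in WT M0 against 284, 246 and 290 in WT M2. The groups overlapped and the log2 fold change of 0.21 (95% interval -0.01 to 0.42) was not called, with an edgeR BH-adjusted p of 0.11, although without the library numbered 2 of WT M0 it was called (0.27, edgeR BH-adjusted p = 0.035).

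**Figure D1:**
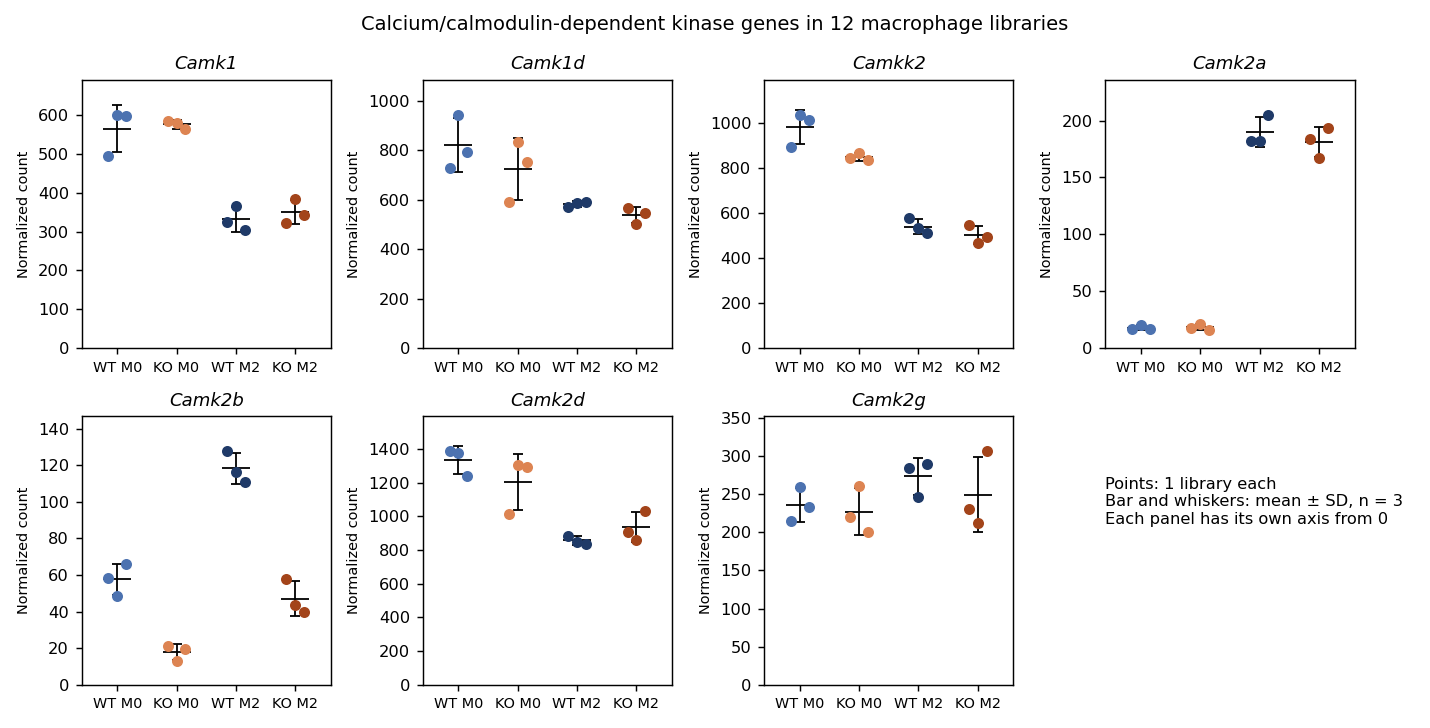
Normalized counts (TMM-scaled, y axis from 0 in each panel) of the 7 kinase genes in the 4 groups, with 1 point per library and the mean ± SD of 3 libraries. Camk2a lies between 16.2 and 21.4 in the M0 libraries and between 167 and 205 in the M2 libraries, and the WT points of Camk2b lie above the miR-210 KO points in each state.

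Some markers of other cell types moved with IL-4 as well. The summed level of 4 dendritic cell markers was 0.32 to 0.98 CPM (counts scaled to the library total) in M0 and 10.0 to 17.5 CPM in M2 libraries. Zbtb46 alone made up most of it, with 2 to 6 raw counts in M0 and 88 to 143 in M2, while Flt3 was at 0 in all M2 libraries. Xcr1 had at most 6 raw counts in either state and Siglech at most 1, so the other 3 markers did not rise with it. S100a8, a neutrophil marker, had 10, 5 and 6 raw counts in WT M0 against 21, 33 and 29 in WT M2 (log2 fold change 2.04). Ppbp, a megakaryocyte marker, had 18, 40 and 21 against 86, 83 and 83 (log2 fold change 1.75). In KO their log2 fold changes were -0.19 and 0.43. Itga2b, another megakaryocyte marker, went the other way, by -0.30 in WT and -0.47 in KO. Whether cells of these types were present, and any part of them in the rise of Camk2a and Camk2b, was not tested. Of the neuronal markers, Rbfox3 was at 0 in all 12 libraries, and Snap25 and Tubb3 had at most 2 counts.

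In miR-210 KO macrophages the same genes were called in the same directions, 6 of 7, against 36.6% of 11116 genes (18.5% higher and 18.1% lower). The median log2 fold change of the 7 genes was -0.37, against -0.01 over all genes. The groups did not overlap in 5 of the 7 genes, against 50.3% of all genes. Camkk2 had 846, 866 and 833 normalized counts in KO M0 and 546, 468 and 494 in KO M2 (log2 fold change -0.76, SE 0.08, edgeR BH-adjusted p = 1.2e-05). Camk1 had 586, 579 and 564 in KO M0 and 322.5, 384.5 and 344 in KO M2 (log2 fold change -0.72, SE 0.09, edgeR BH-adjusted p = 3.9e-05). The decreases of these 2 genes were about as large as in WT and did not overlap between states. Camk2a had 17, 25 and 18 raw counts in KO M0 and 165, 176 and 169 in KO M2 (log2 fold change 3.29, SE 0.17, edgeR BH-adjusted p = 1.6e-08). Camk2b had 21, 15 and 22 raw counts in KO M0 and 52, 46 and 35 in KO M2 (log2 fold change 1.39, SE 0.27, edgeR BH-adjusted p = 0.0012). The M2 ranges of the alpha subunit overlapped between the 2 genotypes, whereas the beta subunit reached 47.2 ± 9.42 normalized counts in KO M2 and 57.7 ± 8.58 in WT M0 (SD, n = 3 each), with overlapping libraries.

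The remaining decreases were less firm in miR-210 KO. Camk1d had 589, 834 and 754 normalized counts in KO M0 and 568, 502 and 546 in KO M2, with a log2 fold change of -0.44 (SE 0.12, edgeR BH-adjusted p = 0.012). Camk2d had 1014, 1304 and 1295 in KO M0 and 910, 862 and 1034 in KO M2, and the lowest M0 library lay within the M2 range (log2 fold change -0.37, SE 0.11, edgeR BH-adjusted p = 0.017). Both calls depended on single libraries. Camk1d was not called without the library numbered 2 of KO M2 (-0.40, edgeR BH-adjusted p = 0.055). Camk2d was not called without the library numbered 3 of KO M0 (-0.34, edgeR BH-adjusted p = 0.064) or without the library numbered 1 (-0.35, edgeR BH-adjusted p = 0.075) or 2 (-0.33, edgeR BH-adjusted p = 0.076) of KO M2. Camk2g again overlapped between states, with a log2 fold change of 0.12 (95% interval -0.20 to 0.44, edgeR BH-adjusted p = 0.57).

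Whether the response to IL-4 differed between genotypes was tested as the interaction over all 12 libraries. None of the 7 genes was called (0 of 7), and none had an unadjusted p under 0.05 in edgeR or was called by DESeq2. Over all 14825 genes 0.0% were called by edgeR, with 1327 at an unadjusted p under 0.05, and DESeq2 called 72. The largest difference in response was that of Camk2b, where the log2 fold change with IL-4 was higher in KO by 0.36 (SE 0.29, 95% interval -0.26 to 0.98). Camk2d came next with 0.27 (SE 0.13, 95% interval -0.02 to 0.55, edgeR BH-adjusted p = 0.59). For the other 5 genes the differences in response lay between -0.09 and 0.10, and their edgeR BH-adjusted p values between 0.82 and 0.96. Of these, the interval was widest for Camk2a, from -0.62 to 0.44.

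Between the genotypes Camk2b stood apart from the other 6 genes in size. In M0 macrophages it had 51, 52 and 72 raw counts in WT and 21, 15 and 22 in miR-210 KO, or 57.7 ± 8.58 and 18.0 ± 4.53 normalized counts (SD, n = 3 each). Every KO library lay below every WT library, and the log2 fold change was -1.69 (SE 0.25), a level 3.23 times higher in WT. In M2 macrophages it had 119, 122 and 99 raw counts in WT and 52, 46 and 35 in miR-210 KO, or 118.3 ± 8.52 and 47.2 ± 9.42 normalized counts (SD, n = 3 each). The groups were again separate, with a log2 fold change of -1.33 (SE 0.16), 2.51 times higher in WT. The M0 and M2 comparisons have no libraries in common, but both share libraries with the comparisons of M2 with M0.

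Camk2b was the 1 of the 7 genes called in M0, as lower in KO, where 0.461% of 14089 genes were called (0.22% higher and 0.241% lower), and the 1 of 7 called in M2, also lower, where 0.98% of 13980 genes were called (0.408% higher and 0.572% lower). Since the gene was chosen for this difference, nothing is read from those counts. In M0 Camk2b was no longer called when WT M0 library 1 (log2 fold change -1.68) or 3 (-1.57) was left out. Erythroid markers were counted in some of the WT libraries only. The haemoglobin genes Hba-a1 and Hbb-bs were at 0 in all 6 KO libraries. Hbb-bs had 17, 7 and 0 raw counts in WT M0 against 0, 25 and 1 in WT M2, and Hba-a1 had 4, 3 and 0 against 0, 10 and 1. The library numbered 3 of WT M0 and that numbered 1 of WT M2 had 0 counts of both markers, and Camk2b had 72 and 119 raw counts there. The neutrophil marker S100a9 likewise had 8, 3 and 0 raw counts in WT M0, 0, 8 and 0 in WT M2, and 0 in all 6 KO libraries. S100a8 differed between KO and WT by a log2 fold change of 1.03 in M0 and -1.17 in M2. For the megakaryocyte markers the values were 1.21 and -0.11 for Ppbp, and -0.14 and -0.31 for Itga2b. The part of erythroid cells, neutrophils or megakaryocytes in the Camk2b difference was not tested. The summed level of the neuronal markers, nearly all of it Syn1, was 16.2 to 21.9 CPM in WT M0, 11.2 to 13.6 in KO M0, 10.1 to 14.6 in WT M2 and 12.2 to 13.8 in KO M2, and its part in the Camk2b difference was not tested.

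The other 6 genes were not called between genotypes in either state. Their log2 fold changes in M0 ran from -0.21 for Camkk2 to 0.02 for Camk1, with edgeR BH-adjusted p values of 0.40 to 0.99. In M2 they ran from -0.13 for Camk2g to 0.13 for Camk2d, with edgeR BH-adjusted p values of 0.59 to 0.88. Over all 7 genes the median was -0.15 in M0 and -0.10 in M2, against 0.00 over all genes tested in each. Groups did not overlap for 1 of these 6 genes in each state, Camkk2 in M0 and Camk1d in M2, near the 14.3% of all genes in M0 and 16.2% in M2. Camkk2 in M0 was the closest of the 6 to a difference, with 894, 1036 and 1011 normalized counts in WT and 846, 866 and 833 in KO (log2 fold change -0.21, 95% interval -0.40 to -0.03, edgeR BH-adjusted p = 0.40). Camk1d in M2 differed by -0.12 (95% interval -0.26 to 0.03, edgeR BH-adjusted p = 0.62). The interval was widest for Camk2a in M0, from -0.58 to 0.61, at 15 to 25 raw counts per library, so a difference of that size was not detectable at this depth. In M2, where Camk2a had 165 to 191 raw counts, the interval ran from -0.28 to 0.15.

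**Figure D2:**
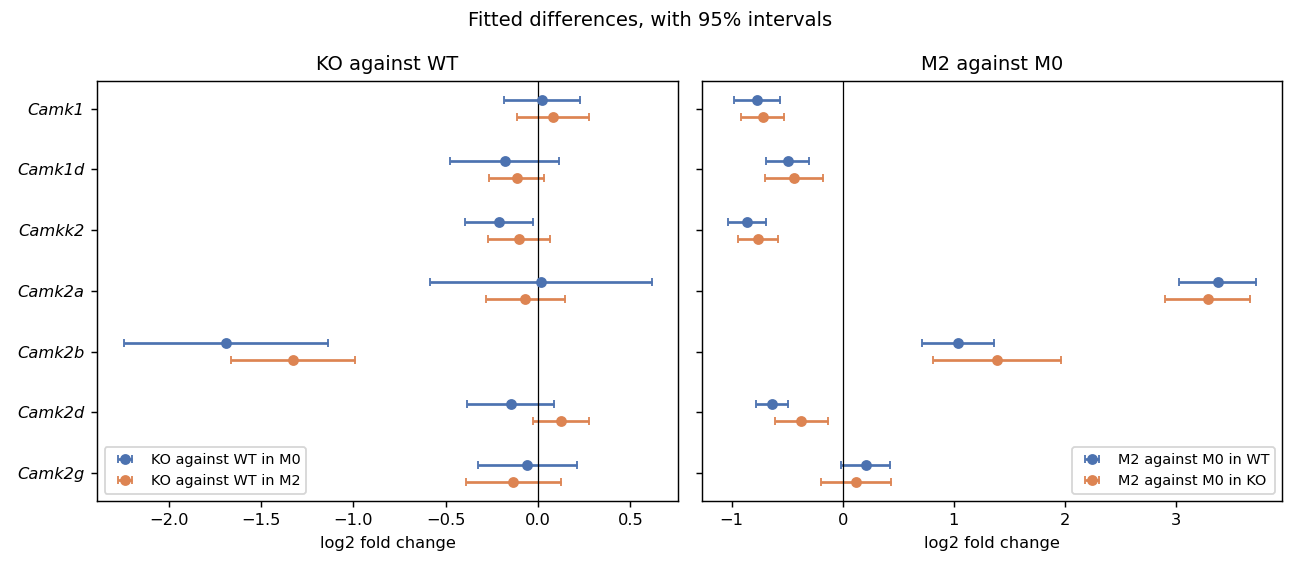
Fitted log2 fold changes (x axis) of the 7 kinase genes with 95% intervals, KO against WT on the left and M2 against M0 on the right, each on its own scale. Camk2b lies at -1.69 and -1.33 between genotypes while the other 6 genes lie between -0.21 and 0.13, and with IL-4 Camk2a and Camk2b lie to the right of 0 and Camkk2, Camk1, Camk1d and Camk2d to the left.

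The genes that hold a seed match were set beside these values. Camkk2 and Camk2a, which hold matches to miR-210-3p, had log2 fold changes of -0.21 and 0.02 between KO and WT in M0 and of -0.10 and -0.07 in M2, and neither was called. Camk2b, which holds 2 matches to miR-210-5p and none to miR-210-3p, was the gene that was lower in KO. Camkk2, not called, also holds 2 matches to miR-210-5p, so such matches were not particular to Camk2b. The promoter windows of RefSeq on GRCm38.p6 (250 bases before to 50 after the start) were also searched on both strands for TTC followed by GAA after 4 bases of any kind, the palindrome and spacing known for STAT6, which IL-4 activates. They had 6 entries for Camk1, Camk1d, Camk2b, Camk2d and Camkk2, and the letters were in 0 of these, against 6.95% of 32851 windows. No window of Camk2a or Camk2g was searched, so this says nothing of Camk2a, the gene that rose most with IL-4. The same letters with 3 bases between them occurred in 1 of the 6 entries, a window of Camk1d, against 8.3% of all windows. The Camk2b window, at chr11:6065699-6065998 on the minus strand, had a GC content of 77.3%, against a median of 52.7% over all windows.

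Because the 4 CaMKII subunits share a holoenzyme, each gene was also expressed as a share of their summed level per kilobase. The summed level was 81.1 ± 3.61 in WT M0, 72.5 ± 7.53 in KO M0, 89.3 ± 3.62 in WT M2 and 83.8 ± 9.61 in KO M2 (SD, n = 3 each). In WT it was higher in M2 than in M0 with no overlap of libraries, whereas the states overlapped in KO and the genotypes overlapped in each state. Camk2d held 61.6% ± 2.40 of the sum in WT M0 and 36.0% ± 1.52 in WT M2, and Camk2a went from 2.31% ± 0.18 to 22.1% ± 1.28 (SD, n = 3 each). Camk2g held 31.1% ± 2.32 and 32.7% ± 1.59, with overlapping libraries (SD, n = 3 each). The Camk2b share was 4.98% ± 0.95 in WT M0 and 1.76% ± 0.59 in KO M0, and 9.23% ± 0.69 in WT M2 and 3.97% ± 0.99 in KO M2 (SD, n = 3 each). It was lower in every KO library than in every WT library of the same state. In KO M2 the delta subunit held 41.9% ± 0.89 (SD, n = 3), above its 36.0% in WT M2 with no overlap of libraries, and Camk2a held 22.5% ± 1.10 (SD, n = 3). The shares add to a fixed total, so a lower Camk2b share leaves more for the other genes. The normalized counts of Camk2d overlapped between genotypes in M2 and were not called different (log2 fold change 0.13, edgeR BH-adjusted p = 0.59).

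These shares depend on the gene length used. With the longest transcript in place of the union of exons, Camk2d held 74.4% of the sum in WT M0 and 50.4% in WT M2, and Camk2a 1.495% and 16.6%. The summed level in WT then went the other way, from 226.6 ± 10.6 in M0 to 214.8 ± 7.22 in M2 (SD, n = 3 each), with overlapping libraries. The directions of the shares held for Camk2a and Camk2d between states, for Camk2b between genotypes and for Camk2d between genotypes in M2. The union of exons of Camk2d covers 26696 bases against 7911 for its longest transcript, the largest such gap among the 7 genes. RNA shares also say nothing of protein.

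**Figure D3:**
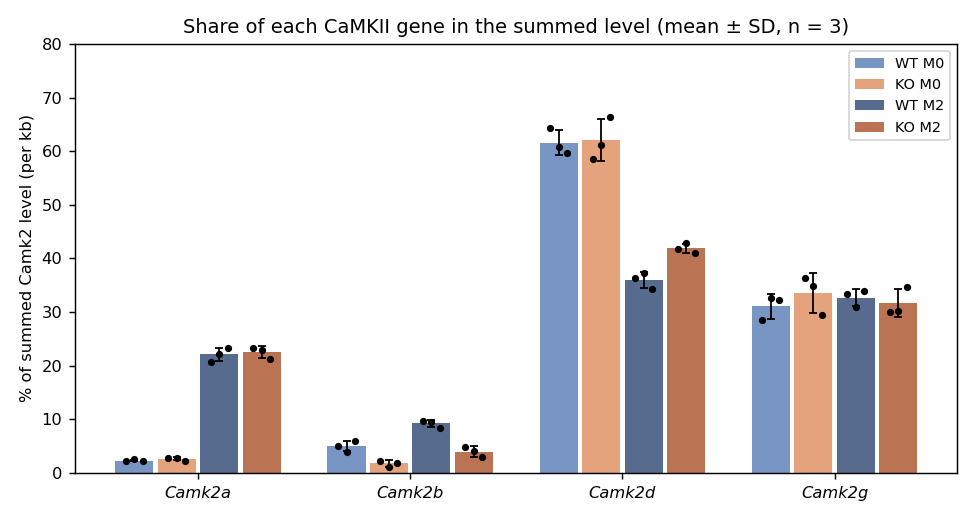
Share of each CaMKII gene in the summed level per kilobase of the 4 genes (y axis, percent, from 0), with bars for the mean of 3 libraries, whiskers for the SD and points for libraries. Camk2d falls from 61.6% in WT M0 to 36.0% in WT M2 as Camk2a rises from 2.31% to 22.1%, and the Camk2b share in KO stays below that of WT in each state.

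Camk2b lies on chromosome 11 of GRCm39 from 5915791 to 6016362 on the minus strand. It overlaps Ykt6, a trafficking protein gene, and the lncRNA gene Gm74286 on the opposite strand, which the stranded counting keeps apart. It also overlaps the lncRNA gene Gm74282 on its own strand, and reads that fall on both of these cannot be told apart by strand. Camk2d and Camk2a likewise overlap 7 and 2 annotated genes on their own strand. Within 500 kb of Camk2b the annotation holds 63 other genes. Of the 24 that could be tested in M0, 0 were called between genotypes by edgeR or by DESeq2 and 1 had an unadjusted p under 0.05 in edgeR. Their log2 fold changes ran from -0.26 for Gm11973 to 0.24 for Ykt6 (edgeR BH-adjusted p = 0.87 and 0.40). In M2, 23 could be tested, 0 were called by edgeR or by DESeq2 and 2 had an unadjusted p under 0.05 in edgeR. Their log2 fold changes there ran from -0.57 for Rps15a-ps6 to 0.41 for Pold2 (edgeR BH-adjusted p = 0.56 and 0.44). Over all genes edgeR called 0.461% in M0 and 0.98% in M2. An unadjusted p under 0.05 in edgeR was found for 10.0% and 10.7% of all genes. No tested neighbour came near the -1.69 and -1.33 of Camk2b. Camk2b was chosen for its difference and the neighbours were not, so nothing is read from that gap. The other members were on chromosomes 6 (Camk1), 2 (Camk1d), 18 (Camk2a), 3 (Camk2d), 14 (Camk2g) and 5 (Camkk2). No stretch of 50 bases in the longest transcript of a member was shared with another member, and 0.44% of such stretches in Camk2a were shared with genes outside the family.

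**Figure D4:**
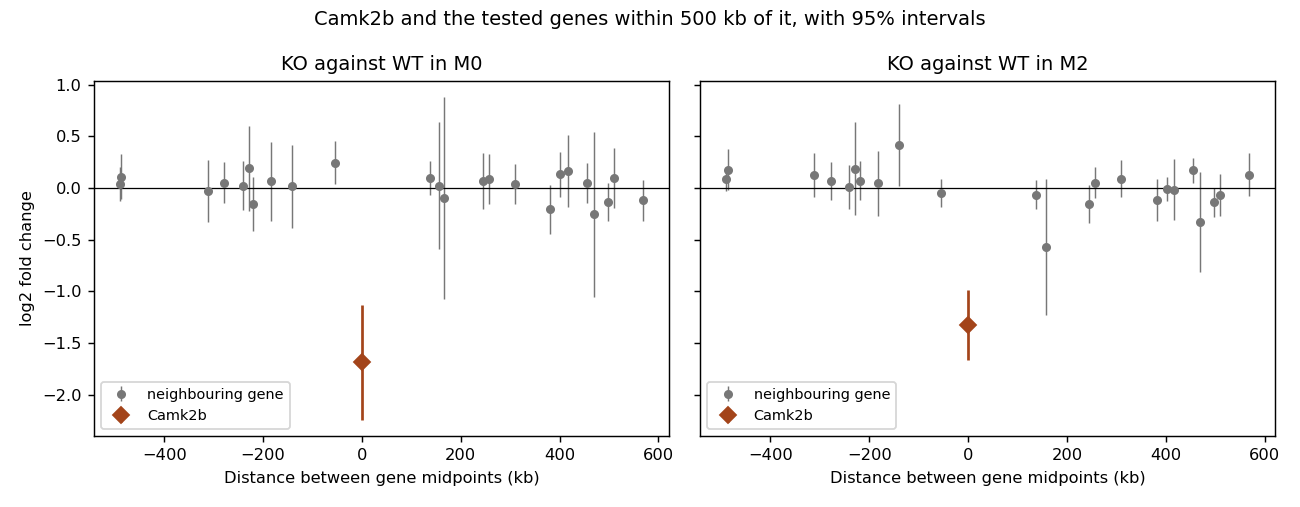
Log2 fold change between KO and WT (y axis) of Camk2b and of the tested genes within 500 kb of it, against the distance between gene midpoints in kb (x axis), in M0 on the left and M2 on the right, with 95% intervals. Camk2b lies at -1.69 and -1.33, and the 24 and 23 neighbours lie between -0.57 and 0.41.

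The genes whose pattern over the 12 libraries was most like that of Camk2b were looked up by Pearson's r of log2(normalized count + 1) among the other 14824 genes, as a description. The 5 most alike were Rab4a (r = 0.94), a small GTPase of recycling endosomes, Fat3 (0.92), a protocadherin, Rbm45 (0.92), an RNA-binding protein, Ccr2 (0.91), the receptor for the monocyte chemokine CCL2, and Rin2 (0.91), a regulator of endosomal Rab GTPases. Rab4a had mean normalized counts of 144 in WT M0, 34.2 in KO M0, 321 in WT M2 and 142 in KO M2, which is the same order of groups as for Camk2b but for near-equal WT M0 and KO M2 levels. Ccr2 had 50.1, 19.5, 83.0 and 52.7 in the same groups. Among the other kinase genes, r with Camk2b ran from -0.65 for Camk1 to 0.60 for Camk2a. For Camk2a the 5 most alike were Lrrc32, Apol7d, Smap2, Itgax and Cdh1, each with r near 1.00, and Itgax, which encodes the integrin CD11c, went from 30.9 mean normalized counts in WT M0 to 6328 in WT M2. All these values share the libraries, the step between M0 and M2 and the difference between genotypes, and the genotype difference for which Camk2b was chosen is part of its pattern.

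The wider calcium and calmodulin pathway was followed in 84 other genes in 7 lists. Between the genotypes no gene was called by edgeR: 0 of 61 tested in M0 and 0 of 62 in M2, where 6 and 1 had an unadjusted p under 0.05 in edgeR and DESeq2 called 1 and 0. Over all genes edgeR called 0.461% in M0 and 0.98% in M2, so few or no calls are usual for lists of this size. An unadjusted p under 0.05 in edgeR was found for 10.0% of all genes in M0 and 10.7% in M2. None of 64 was called in the interaction, with 5 at an unadjusted p under 0.05 in edgeR, against 8.95% of all genes, and 0 called by DESeq2. With IL-4, 34 of 63 tested were called in WT (13 higher and 21 lower, against 45.4% of all genes), and 25 of 63 in KO (10 higher and 15 lower, against 36.6%). The median log2 fold change was -0.08 in WT and -0.05 in KO. The remaining members of the kinase family were almost silent. Camk1g, Camk4 and Camkv were at 0 counts in all 12 libraries. Taken alone, a library at 0 allows up to 3 counts, and the 12 together allow fewer. Pnck had at most 4 and Camkk1 at most 5, and 0 of these 5 genes could be tested.

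Calm2 and Calm3, which encode calmodulin itself, rose in WT with log2 fold changes of 0.39 (SE 0.07, edgeR BH-adjusted p = 0.00043) and 0.38 (SE 0.08, edgeR BH-adjusted p = 0.0013). In KO Calm2 was called (0.29, edgeR BH-adjusted p = 0.021) and Calm3 was not (0.19, edgeR BH-adjusted p = 0.18).

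Among inhibitors and phosphatases of CaMK, Camk2n1, which encodes an inhibitor protein of CaMKII, was called higher in both genotypes. It had 1, 2 and 1 raw counts in WT M0 against 25, 35 and 33 in WT M2, and 3, 0 and 2 in KO M0 against 21, 37 and 25 in KO M2. It thus moved from near the detection limit to about 30 counts per library, and the fitted log2 fold changes of 4.49 in WT and 4.14 in KO rest on very few M0 counts. The other tested gene of that list was not called.

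Of the other calmodulin-dependent kinases, 4 of 5 tested were called in each genotype, 2 higher and 2 lower, against 45.4% of all genes in WT and 36.6% in KO. Mylk, the myosin light chain kinase, had 19, 33 and 28 raw counts in WT M0 against 1, 4 and 2 in WT M2 (log2 fold change -3.37, SE 0.40, edgeR BH-adjusted p = 1.1e-05). Dclk1, a doublecortin-like kinase, had 1, 1 and 0 raw counts in WT M0 against 12, 28 and 20 in WT M2, a ratio of 31.7 with a 95% counting interval of 8.40 to 268. In KO it was at 0 in every M0 library and had 48, 34 and 27 in M2, at least 12.9-fold higher when set against 3 counts per library.

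Substrates and effectors of the kinases were divided as well, with 8 of 20 tested called in WT, 4 higher and 4 lower, and 6 in KO. Both counts were near the shares over all genes, 45.4% in WT and 36.6% in KO. Tiam1, a Rac exchange factor, had 71, 116 and 101 in WT M0 against 188, 177 and 171 in WT M2 (log2 fold change 0.98, SE 0.13, edgeR BH-adjusted p = 3.2e-05). In KO its log2 fold change was 0.61.

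Calcium entry and release genes included the largest fitted change of the lists in WT, that of Ryr1. This gene, which encodes the ryanodine receptor that releases calcium from the endoplasmic reticulum, had 5, 0 and 2 raw counts in WT M0 against 119, 160 and 140 in WT M2, with 3, 3 and 3 in KO M0 and 144, 180 and 130 in KO M2. It went from at most 5 counts to over 100 in every M2 library (log2 fold change 5.90 in WT and 5.79 in KO). Trpm2, a calcium-permeable channel, fell from 97, 200 and 161 raw counts in WT M0 to 35, 37 and 34 in WT M2 (log2 fold change -2.02, SE 0.20, edgeR BH-adjusted p = 2.1e-06). In this list 12 of 23 tested were called in WT, 4 higher and 8 lower, and 10 in KO, 2 higher and 8 lower, near the 45.4% and 36.6% of all genes.

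Calcineurin and NFAT, the calmodulin-dependent phosphatase and the transcription factors that it frees to enter the nucleus, were called in 1 direction. In WT 7 of 10 tested were called, all 7 lower, against 45.4% of all genes called and 21.8% lower. In KO 3 of 10 were called, all 3 lower, against 36.6% called and 18.1% lower. Nfatc2 had 438, 786 and 608 raw counts in WT M0 against 278, 287 and 278 in WT M2 (log2 fold change -1.03, SE 0.12, edgeR BH-adjusted p = 1.4e-05), and -0.77 in KO (edgeR BH-adjusted p = 0.00052). Nfatc1 fell by 0.66 on the log2 scale in WT (SE 0.07, edgeR BH-adjusted p = 4.1e-06) and differed by -0.26 in KO, where it was not called (edgeR BH-adjusted p = 0.10). Since 0 genes were called in the interaction, the smaller number of calls in KO does not show a different response.

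**Figure D5:**
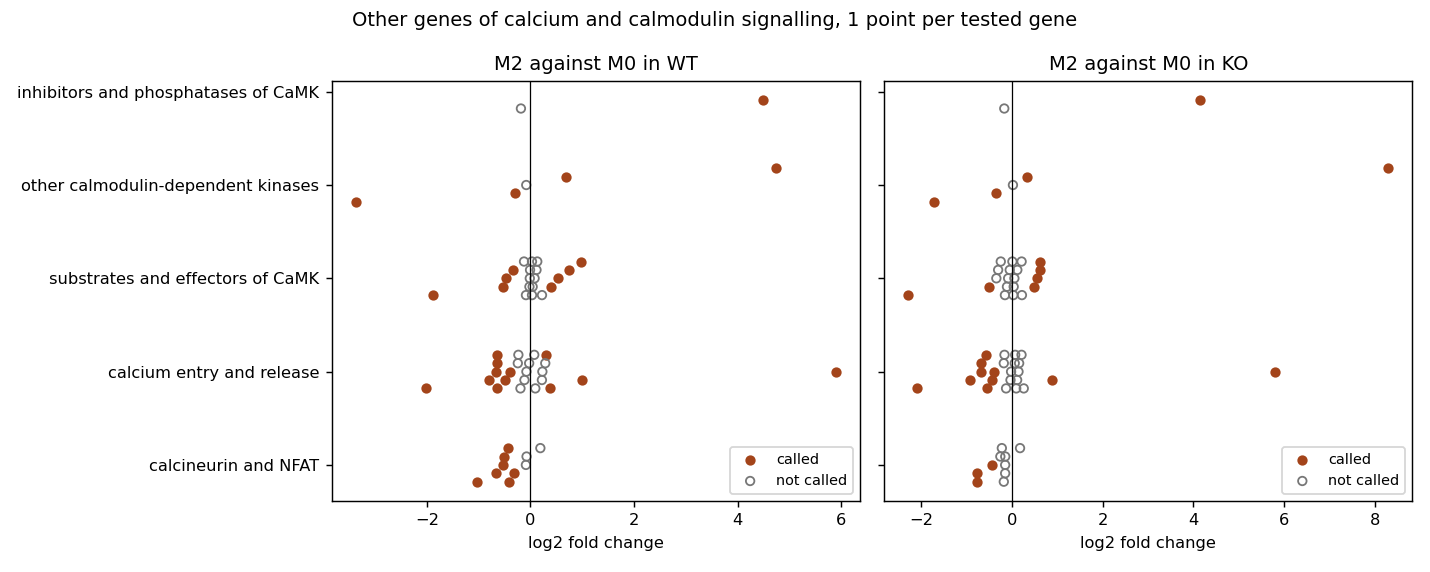
Log2 fold change with IL-4 (x axis) of each tested gene of 5 pathway lists (rows), in WT on the left and in miR-210 KO on the right, with filled points for called genes. Ryr1, at 5.90 and 5.79, and Dclk1 lie far to the right, where the value of Dclk1 in KO depends on the fit since its M0 libraries were at 0, and every called calcineurin and NFAT gene lies left of 0.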

How the data were processed

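RNA-seq data of 12 libraries, 3 in each of 4 groups, were analysed. Per the study's methods, the authors trimmed reads (Trimmomatic), removed duplicates (Picard), aligned to GRCm39 with STAR and counted reads on the strand of each gene with featureCounts. The authors deposited raw counts in 4 tables, each for 1 pair of groups, and a signal, the same counts divided by DESeq2 size factors set per pair. Raw counts were used for all tests and the deposited normalized signal only for an alternative. Column names gave the group of a library, and its number (1 to 3) could not be tied to a sample.

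Pairs of groups (6 libraries) and the interaction (12 libraries) were fitted with edgeR 4.0.16 in R 4.3.3 (quasi-likelihood F test after TMM scaling and filterByExpr by group), with BH adjustment over all genes tested. A call needed an adjusted p under 0.05 plus a fold change over 1.2 (0.263 on the log2 scale), for polarization also a protein-coding gene with a mean normalized count over 10, and for the interaction by the adjusted p alone. The SE is the log2 fold change divided by the square root of F, and 95% intervals use the t distribution with the degrees of freedom of the fit. Fits were tested on simulated data. The genes named are the 7 members, the pathway genes called between genotypes or in the interaction, the 2 largest called changes with IL-4 in WT per list, the 5 genes most like Camk2b and Camk2a, the markers and Mir210. Some genes of the lists are not reported here. Of the neighbours of Camk2b, those with the lowest and highest values were named after their values were seen. The members and lists were chosen with earlier results of these data known. Alternatives were DESeq2 1.42.0, other size factors, other filters on low counts, no fold limit, 1 fit of 12 libraries, a block on library number, other gene lengths, and each library left out. Coordinates came from GENCODE (GRCm39), which matched 56323 gene identifiers.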

Additional observations from a re-analysis of the deposited data

How the results depend on the processing

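The 7 alternatives that kept all libraries (5 for the interaction) left every member's direction and call as reported. Without 1 library, the number of members called between genotypes in M0 was 0 to 1, and that after IL-4 4 to 6 in KO and 6 to 7 in WT. The pathway genes called between genotypes in M0 were 1 with DESeq2, 1 in a fit of 12 libraries, 2 with no filter on low counts, 1 with the library number as a block and 0 to 1 without 1 library. With no filter, 1 was called in M2 and 1 in the interaction. Log2 fold changes near 0 changed sign without 1 library: between genotypes in M0, Camk1 ran from -0.060 to 0.078, Camk2a from -0.12 to 0.13 and Camk2g from -0.17 to 0.025. For IL-4 in KO, Camk2g ran from -0.058 to 0.23. For the interaction, Camk1 ran from -0.023 to 0.13, Camk1d from -0.073 to 0.17, Camk2a from -0.21 to 0.046 and Camk2g from -0.25 to 0.033. Over all genes, DESeq2 called 219 in M0 against 65. The causes were not tested. Camk2b has at most 72 raw counts per M0 library, and its M0 call was lost without either of 2 WT libraries.

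Deviations of libraries with the same number had correlations of -0.25 to 0.31 between groups. With 3 libraries per group these values cannot settle whether the numbers pair libraries. With the library number as a block, 1 and 1 members were called between genotypes, 6 and 6 with IL-4 and 0 in the interaction, as without it.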
